A study of Mus musculus with 22 samples.

Results

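Rangap1, Hdac1, Lcp1, Ppp4r1, Optn, Kif4 and Pdzd11 are the genes treated here as known targets of pseudogene-derived small RNAs in the mouse oocyte. They were chosen by name, as genes known or used in the study as targets of endogenous siRNAs, and make up 7 of the 52636 genes of the count table. Of these, 6 of 7 are on the study's own list of siRNA targets, with Hdac1 as the exception. All 7 passed the filter on low counts in both sequencing runs.

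Endogenous RNA interference is unusually active in mouse oocytes. Long double-stranded RNA forms when a transcript pairs with an antisense copy of itself, either from an inverted repeat, from an overlapping antisense gene or from a pseudogene transcribed on the other strand. Dicer cuts it into siRNAs, and AGO2 loaded with these siRNAs cleaves messenger RNAs that match them. The oocyte makes a short Dicer isoform, Dicer O, from a promoter supplied by an MTC retrotransposon in an intron of Dicer1, and this isoform processes long double-stranded RNA well. Because pseudogenes derive from the messenger RNA of their parent gene, they can direct siRNAs against the parent, and oocytes that lack Dicer O are known to accumulate such parent transcripts.

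Total RNA of fully grown, germinal vesicle stage (GV) oocytes from C57BL/6 mice was sequenced in 2 runs, which differ in read type, instrument and control genotype. The single-end run held 3 samples with the genotype Dicer WT/WT, 1 with Dicer ΔMT/WT, 4 with Dicer ΔMT/ΔMT and 3 with Dicer SOM/SOM, at an age that the labels leave blank. The paired-end run held 4 heterozygous controls (Mili DAH/WT and Dicer SOM/WT, 10 to 38 weeks old), 1 piRNA mutant (Mili DAH/DAH and Dicer SOM/WT, 16 weeks), 2 RNAi mutants (Mili DAH/WT and Dicer SOM/SOM, 13 and 17 weeks) and 4 double mutants (Mili DAH/DAH and Dicer SOM/SOM, 11 to 40 weeks). Every sample of the paired-end run, controls included, therefore carries at least 1 Mili DAH and 1 Dicer SOM allele. In ΔMT the MTC promoter is deleted, but a neighbouring MTA element can still start a truncated Dicer transcript. In SOM the introns that hold both elements are removed and HA-tagged full-length Dicer is encoded, in a line founded from 1 embryonic stem cell clone. DAH changes the catalytic site of MILI, the PIWI protein of the piRNA pathway.

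Totals of estimated counts ran from 6468380 to 90713013 among single-end libraries and from 22928936 to 43540806 among paired-end libraries, with SOM/SOM replicate 3 as the shallowest. Dicer1, the targeted gene, lay between 996 and 1050 CPM (estimated counts scaled by TMM to a common library size) in WT/WT, at 718 in ΔMT/WT, between 427 and 533 in ΔMT/ΔMT and between 41.6 and 54.4 in SOM/SOM. In the paired-end run it lay between 502 and 763 CPM in the controls, at 595 in the piRNA mutant, and between 53.1 and 62.1 in the RNAi and double mutants. These levels follow the labels in all 22 samples. All 10 oocyte markers were detected in every group, with summed levels from 11400 to 14500 CPM. The 10 granulosa cell markers summed to between 80.3 and 148 CPM, with groups overlapping, and in SOM/SOM Fshr and Star were called higher and Cyp19a1 lower than in WT/WT. Nr5a2, the most abundant of them, was lower in double mutants than in controls (log2 fold change -0.49 ± 0.16, edgeR adjusted p = 0.0388). Of the oocyte markers, Nobox was higher in SOM/SOM (0.43 ± 0.11, adjusted p = 0.0153), and Zar1 was lower in SOM/SOM (-0.46 ± 0.12, adjusted p = 0.0147) and in double mutants (-0.5 ± 0.15, adjusted p = 0.026). The paired-end libraries fell into separate sets by the level of Gm42418, a locus that overlaps ribosomal RNA sequence, with 294 to 557 CPM in controls 2o and 2, double mutants 2o and 2 and the piRNA mutant and 4080 to 5500 CPM in the other 6. In the single-end run it stood at 12700, 4760 and 17300 CPM in SOM/SOM replicates 1, 2 and 3, against 5200 to 5780 in WT/WT. It was called higher in SOM/SOM (1.07 ± 0.35, edgeR adjusted p = 0.039). A term for its level was fitted in the paired-end run only.

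Stretches of the transcripts are shown first, because the members differ in whether and how a copy exists that could pair with them. They come from the GENCODE M21 transcripts (GRCm38, the build of the count table) and lie in the coding sequence of each member. Copies were genes at another locus that aligned to a member's transcript at 80% identity or more over 200 bases or more. Capitals mark the bases that differ between member and copy, and each pair spans 60 bases. Among stretches with at least 1 difference, the one with the longest run of identical bases was taken, and then the fewest differences. The pairs therefore do not show the typical match. The first 2 pairs belong to Rangap1 (chr15:81704248-81729919, minus strand) and the adjacent pseudogenes Gm7162 (chr17:12819819-12820842, minus strand) and Gm16574 (chr17:12818793-12819537, plus strand).
Rangap1 bases 793 to 852: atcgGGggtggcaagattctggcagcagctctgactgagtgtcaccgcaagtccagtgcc
Gm7162: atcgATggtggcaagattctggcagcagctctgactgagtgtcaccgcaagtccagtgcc
Rangap1 bases 1706 to 1765: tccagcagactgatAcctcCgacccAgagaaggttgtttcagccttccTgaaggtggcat
Gm16574: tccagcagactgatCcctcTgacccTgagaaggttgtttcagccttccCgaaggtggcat

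The next pairs show the nearly identical Gm10093 (chr17:78491582-78493025, plus strand) beside Hdac1 (chr4:129516104-129542713, minus strand), and E330011O21Rik (chr16:78250861-78302487, minus strand), a noncoding gene that holds Hdac1 sequence in the antisense direction. E330011O21Rik is printed as its own transcript reads, so it is the reverse complement of the Hdac1 line above it apart from the capitals.
Hdac1 bases 367 to 426: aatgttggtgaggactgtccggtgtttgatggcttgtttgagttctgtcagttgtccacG
Gm10093: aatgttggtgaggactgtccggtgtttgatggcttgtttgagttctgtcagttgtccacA
Hdac1 bases 316 to 375: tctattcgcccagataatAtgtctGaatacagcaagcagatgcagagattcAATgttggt
E330011O21Rik: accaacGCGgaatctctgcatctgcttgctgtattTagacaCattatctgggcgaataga

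Lcp1 (chr14:75131554-75230842, plus strand) is shown with Gm7823 (chrX:133093940-133095562, minus strand), and Ppp4r1 (chr17:65783355-65841926, plus strand) with Gm15681 (chr8:99145386-99148089, minus strand).
Lcp1 bases 1146 to 1205: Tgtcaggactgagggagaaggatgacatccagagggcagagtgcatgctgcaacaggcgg
Gm7823: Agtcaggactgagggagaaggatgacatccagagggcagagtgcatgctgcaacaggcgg
Ppp4r1 bases 603 to 662: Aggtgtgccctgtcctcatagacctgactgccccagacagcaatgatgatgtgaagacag
Gm15681: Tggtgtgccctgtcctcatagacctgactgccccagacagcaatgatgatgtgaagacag

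Kif4 (chrX:100625737-100727214, plus strand) and Pdzd11 (chrX:100622886-100626568, minus strand) pair with each other. Their exons overlap on opposite strands over 753 bases, which is 15.1% of the exon bases of Kif4 and 44.4% of those of Pdzd11. The 30 bases shown begin with the start codon of Kif4, contain no difference and therefore no capitals, and in Pdzd11 they read as the exact reverse complement.
Kif4 bases 733 to 762: atgaaagaagaggtgaaggggattcccgta
Pdzd11: tacgggaatccccttcacctcttctttcat

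Copies numbered 14 for Hdac1, 2 for Rangap1, 2 for Lcp1, 1 for Ppp4r1 and 1 for Pdzd11, and 15 of these 20 were in the count table. Gm10093 matched Hdac1 at 99.4% over 1444 bases, Gm7823 matched Lcp1 at 91.4% over 1658, and Gm15681 matched Ppp4r1 at 89.0% over 2769. Gm7162 and Gm16574 matched Rangap1 at 88.3% over 1042 and at 86.7% over 399, in parts of the transcript that do not overlap. The longest run of identical bases was 450 for Gm10093, 79 for Gm7823 and Gm15681, 54 for Gm7162, 26 for E330011O21Rik and 22 for Gm16574. Among the 14 copies of Hdac1, 3 were annotated antisense to it.

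**Figure D1:**
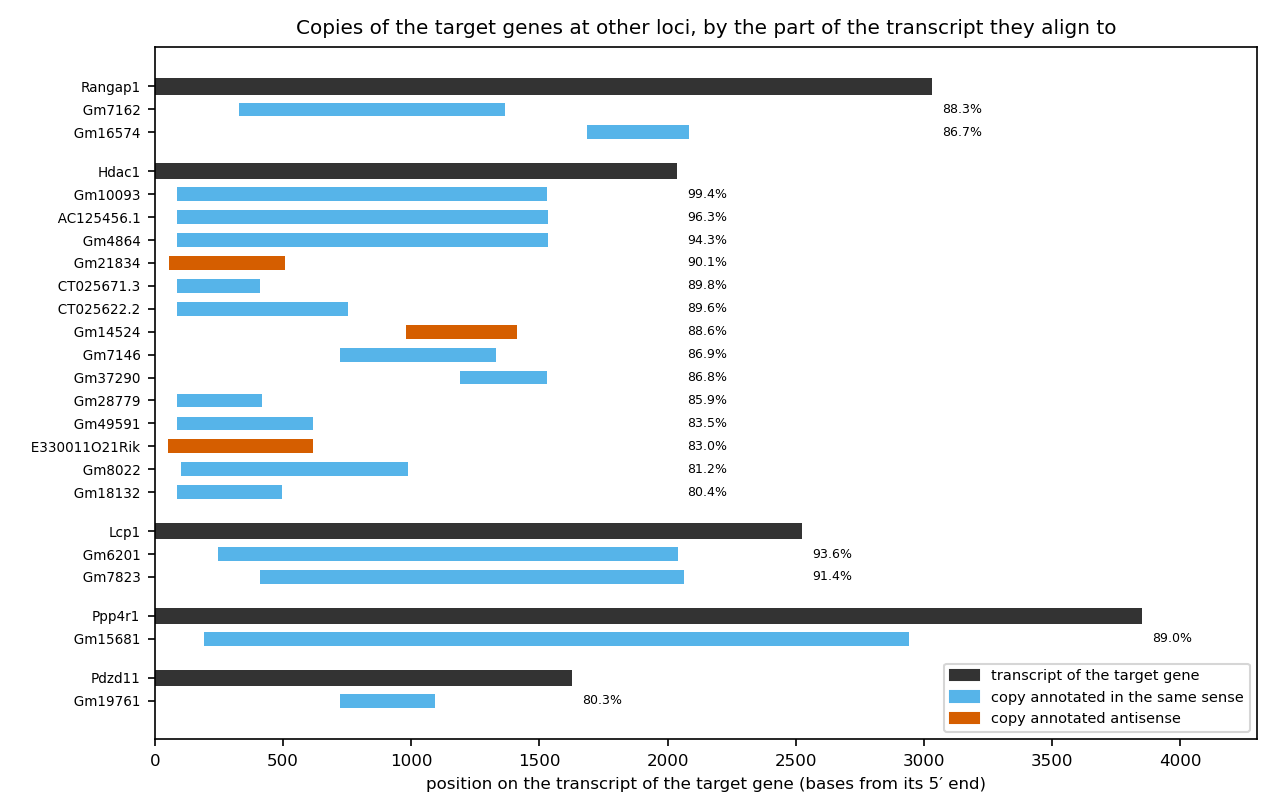
Position of each copy on the transcript of its target gene, in bases from the 5′ end, with the identity of the alignment at the right. Dark bars are transcripts of the target genes, blue bars copies in the same sense and orange bars copies annotated antisense; Hdac1 has 14 copies and Optn and Kif4, which have none, are not drawn.

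Optn (chr2:5020642-5064045, minus strand) and Kif4 had no copy by this rule, so their label as targets of pseudogene siRNAs had no counterpart in the annotation used here. Kif4-ps aligned to Kif4 at 79.5% over 3692 bases, just under the limit, and is named here after its value was seen. The only copy of Pdzd11, Gm19761, covered 22.9% of its transcript. Optn shares 73 exon bases with 4930551O13Rik, and Lcp1 shares 311 with Gm15628 and 42 with Gm15629, all on the opposite strand. The counting ignored strand, so reads of overlapping antisense genes could not be told apart.

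All 7 genes were higher in both Dicer mutants, and the size of the rise differed by gene and by Dicer allele. Against WT/WT, Rangap1 was 5.16-fold higher in ΔMT/ΔMT and 7.97-fold in SOM/SOM, Lcp1 2.58-fold and 7.31-fold, and Hdac1 2.28-fold and 6.22-fold. Kif4 and Pdzd11, the abundant overlapping pair, rose least, by 1.59-fold and 1.46-fold in ΔMT/ΔMT and by 2.18-fold and 2.10-fold in SOM/SOM. Reads in their shared exon bases, 44.4% of those of Pdzd11, were split between both without regard to strand. The level and rise of Pdzd11 are therefore not independent of Kif4, and how much came from reads of Kif4 was not tested. The same 7 genes were called higher in RNAi mutants and in double mutants of the other run.

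**Figure D2:**
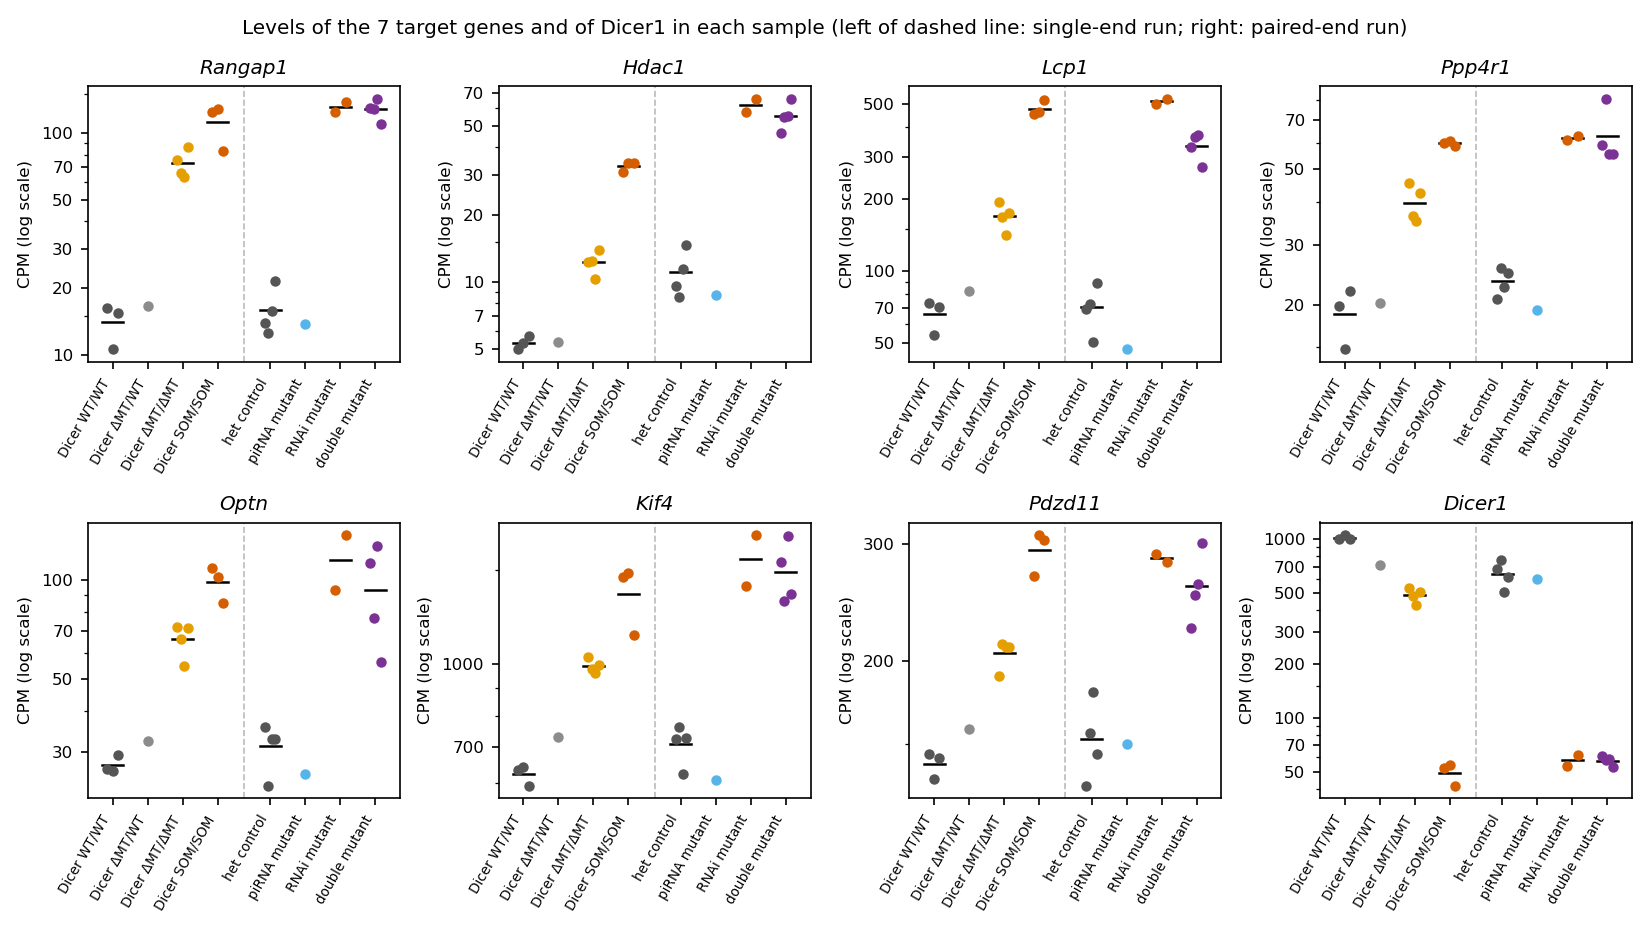
CPM on a log scale of the 7 target genes and of Dicer1 in each of the 22 samples, by genotype; points are samples, black bars are means of groups with 2 samples or more, and the dashed line separates the single-end run (left) from the paired-end run (right). Each target gene is lowest in the groups with a WT or heterozygous Dicer and highest in those with Dicer SOM/SOM, while Dicer1 shows the opposite order.

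Rangap1 encodes the protein that activates the GTPase of Ran, which sets the direction of nuclear transport and acts at the meiotic spindle. It lay at 16.3, 10.6 and 15.5 CPM in WT/WT, at 16.6 in ΔMT/WT, at 75.9, 65.9, 63.3 and 86.5 in ΔMT/ΔMT and at 124, 128 and 82.7 in SOM/SOM. In the paired-end run it lay at 13.9, 12.6, 15.8 and 21.5 CPM in controls, at 13.8 in the piRNA mutant, at 124 and 138 in RNAi mutants and at 130, 128, 143 and 110 in double mutants. Mutants and controls did not overlap in either run, whereas SOM/SOM replicate 3 fell within the ΔMT/ΔMT range. The log2 fold change was 2.37 ± 0.20 (SE) in ΔMT/ΔMT (adjusted p = 4.6e-05, edgeR quasi-likelihood test) and 3 ± 0.21 in SOM/SOM (adjusted p = 3.79e-06).

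Hdac1, a histone deacetylase that removes acetyl groups from chromatin, was the least abundant member in WT/WT oocytes, at 4.98, 5.33 and 5.71 CPM. It lay at 5.35 CPM in ΔMT/WT, at 12.3, 12.4, 10.3 and 13.9 in ΔMT/ΔMT and at 31.0, 34.2 and 34.2 in SOM/SOM. Heterozygous controls had 9.61, 8.56, 11.4 and 14.6 CPM and the piRNA mutant 8.77. RNAi mutants had 57.6 and 66.2 CPM and double mutants 46.3, 54.8, 55.5 and 65.6. The 3 single-end genotypes with replicates were fully separated, with log2 fold changes of 1.19 ± 0.12 in ΔMT/ΔMT (edgeR adjusted p = 0.00012) and 2.64 ± 0.13 in SOM/SOM (adjusted p = 4.29e-07).

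Lcp1 encodes L-plastin, an actin-bundling protein best known from white blood cells. It lay at 73.3, 54.1 and 70.3 CPM in WT/WT, at 82.2 in ΔMT/WT, at 195, 168, 142 and 175 in ΔMT/ΔMT and at 457, 463 and 520 in SOM/SOM. In the paired-end run, controls had 69.5, 72.9, 50.5 and 88.8 CPM, the piRNA mutant 46.9, RNAi mutants 504 and 529, and double mutants 332, 366, 372 and 274. All 4 double mutants lay below both RNAi mutants. The log2 fold change was 1.37 ± 0.13 in ΔMT/ΔMT (edgeR adjusted p = 9.33e-05) and 2.87 ± 0.15 in SOM/SOM (adjusted p = 4.36e-07).

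Since Lcp1 is also a leukocyte transcript, the leukocyte marker list was set beside it. The 10 markers summed to between 7.59 and 10.6 CPM in WT/WT, 10.6 and 16.0 in ΔMT/ΔMT, 15 and 17.3 in SOM/SOM, 6.13 and 8.10 in controls, 19 and 20 in RNAi mutants and 17.4 and 31.3 in double mutants. Itgb2, an integrin subunit, made up most of this difference, with 4.17 to 6.69 CPM in WT/WT and 11.2 to 12.9 in SOM/SOM. The other 9 markers summed to between 3.42 and 3.96 CPM in WT/WT and between 3.10 and 4.39 in SOM/SOM, overlapping, and reached 11.9 in 1 double mutant. Ptprc, which marks all leukocytes, was at 0 in 2 of 3 WT/WT, 2 of 3 SOM/SOM and 4 of 4 control samples and never above 0.440 CPM, although it was called higher in double mutants than in controls (edgeR adjusted p = 0.0466, with no fold given because every control was at 0). The part of such cells in the Lcp1 level of double mutants was not tested.

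Ppp4r1, a regulatory subunit of protein phosphatase 4, lay at 19.8, 14.8 and 22 CPM in WT/WT, at 20.3 in ΔMT/WT, at 45.5, 36.5, 35.4 and 42.5 in ΔMT/ΔMT and at 59.9, 60.8 and 58.5 in SOM/SOM. Controls had 20.8, 25.7, 22.6 and 24.9 CPM, the piRNA mutant 19.3, RNAi mutants 61.0 and 62.7, and double mutants 59.2, 80.8, 55.7 and 55.6. Groups did not overlap between mutants and controls. The log2 fold change was 1.08 ± 0.14 in ΔMT/ΔMT (edgeR adjusted p = 0.000545) and 1.67 ± 0.15 in SOM/SOM (adjusted p = 1.95e-05).

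Optn encodes optineurin, an adaptor that brings ubiquitinated cargo to autophagosomes. It lay at 26.7, 26.3 and 29.4 CPM in WT/WT, at 32.5 in ΔMT/WT, at 72.2, 66.4, 54.7 and 71.4 in ΔMT/ΔMT and at 109, 102 and 85.4 in SOM/SOM. Controls had 35.7, 23.7, 33.0 and 33.0 CPM, the piRNA mutant 25.7, RNAi mutants 93.6 and 137, and double mutants 113, 76.6, 127 and 56.5. Double mutants varied more than any other group, yet each was above each control. The lower double mutants, at 76.6 and 56.5 CPM, were the libraries with little Gm42418, where controls had 23.7 and 33.0, and the others, at 113 and 127, stood beside controls at 35.7 and 33.0. With the Gm42418 level as a term, the log2 fold change of Optn in double mutants was 1.48 ± 0.17 (edgeR adjusted p = 5.15e-05), beside 1.57 ± 0.24 without it. The log2 fold change was 1.27 ± 0.12 in ΔMT/ΔMT (edgeR adjusted p = 9.27e-05) and 1.86 ± 0.13 in SOM/SOM (adjusted p = 3.43e-06).

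Kif4, a chromokinesin needed for chromosome condensation and the anaphase spindle, lay at 635, 642 and 592 CPM in WT/WT, at 731 in ΔMT/WT, at 1030, 979, 962 and 995 in ΔMT/ΔMT and at 1450, 1480 and 1130 in SOM/SOM. Controls had 725, 764, 623 and 727 CPM, the piRNA mutant 607, RNAi mutants 1400 and 1740, and double mutants 1550, 1310, 1730 and 1350. Pdzd11, a small PDZ domain protein, lay at 145, 133 and 143 CPM in WT/WT, at 158 in ΔMT/WT, at 190, 212, 210 and 210 in ΔMT/ΔMT and at 268, 309 and 304 in SOM/SOM. For both genes every ΔMT/ΔMT sample was above every WT/WT sample and below every SOM/SOM sample. Pdzd11 had 130, 156, 180 and 145 CPM in controls, 150 in the piRNA mutant, 289 and 282 in RNAi mutants and 224, 251, 261 and 301 in double mutants. In SOM/SOM the log2 fold change was 1.12 ± 0.10 for Kif4 (edgeR adjusted p = 1.87e-05) and 1.07 ± 0.08 for Pdzd11 (adjusted p = 6.63e-06), and in ΔMT/ΔMT it was 0.67 ± 0.10 (adjusted p = 0.00095) and 0.55 ± 0.08 (adjusted p = 0.000949).

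Ordered by level per kilobase of exon (RPKM), the members ranged widely in WT/WT oocytes. Kif4 stood at 125 ± 5.46 RPKM (SD, n = 3), Pdzd11 at 82.8 ± 3.64, Lcp1 at 15.7 ± 2.45, Optn at 10.5 ± 0.647, Ppp4r1 at 4.90 ± 0.968, Rangap1 at 4.39 ± 0.961 and Hdac1 at 2.62 ± 0.180. Ppp4r1 and Rangap1 did not differ beyond their spread. In SOM/SOM the order was Kif4 at 271 ± 39.4 RPKM, Pdzd11 at 173 ± 13.1, Lcp1 at 114 ± 8.26, Optn at 37.8 ± 4.61, Rangap1 at 34.7 ± 7.79, Hdac1 at 16.3 ± 0.917 and Ppp4r1 at 15.5 ± 0.293, so that Hdac1, the lowest member in WT/WT, reached the level of Ppp4r1. Optn and Rangap1, and Hdac1 and Ppp4r1, did not differ there beyond their spread.

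Against WT/WT, 7 of 7 members were called higher in ΔMT/ΔMT, where 8.06% of the 23151 genes tested were, and 7 of 7 in SOM/SOM, where 14.5% were (adjusted p under 0.05). Since Kif4 and Pdzd11 share reads, these are not 7 separate results. The median log2 fold change of the members was 1.19 in ΔMT/ΔMT and 1.86 in SOM/SOM, beside 0.01 and 0.02 over all genes tested. In an exact two-sided permutation test of log2 CPM, each member of ΔMT/ΔMT gave p = 0.0286, the smallest p that 4 samples against 3 allow, and with 3 samples against 3 no p under 0.1 is possible. The share of all genes separated in this way is not given here, so the permutation p does not set the members apart. Every one of the 14 edgeR calls held when any 1 sample was left out. Each library pooled RNA of several isolated GV oocytes, so a rise in some cells and a rise in all of them cannot be told apart.

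**Figure D3:**
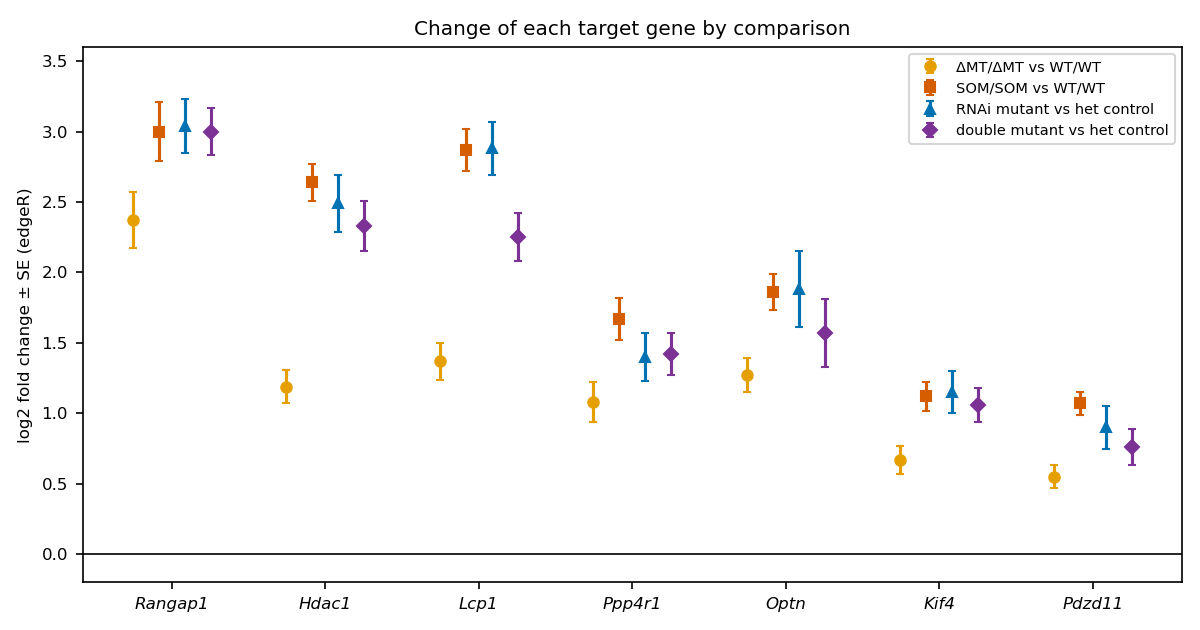
Log2 fold change of each target gene in 4 comparisons with its standard error (edgeR); circles are ΔMT/ΔMT and squares SOM/SOM against WT/WT, triangles RNAi mutants and diamonds double mutants against heterozygous controls. All 28 values are above 0, from 0.55 for Pdzd11 in ΔMT/ΔMT to 3.04 for Rangap1 in RNAi mutants.

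The Dicer alleles were then compared directly, which asks whether the loss of both promoter elements raised the targets further than the loss of MTC alone. SOM/SOM exceeded ΔMT/ΔMT for 6 of 7 members, where 4.03% of all genes tested were called higher. Lcp1 was 2.83-fold higher (log2 fold change 1.5 ± 0.13, edgeR adjusted p = 6.46e-05) and Hdac1 2.72-fold (1.45 ± 0.12, adjusted p = 4.8e-05). The Hdac1 call was lost when all its copies were summed with it (0.14 ± 0.08, adjusted p = 0.335). That sum is mostly E330011O21Rik, at 198 CPM in ΔMT/ΔMT against 12.2 for Hdac1, which was not called here (-0.09 ± 0.09, adjusted p = 0.59). The nearly identical copy Gm10093 was 2.64-fold higher (edgeR adjusted p = 0.000118). Reads that fit both were split between them, so this value is not separate from that of Hdac1. Optn, Ppp4r1, Pdzd11 and Kif4 were 1.51-fold, 1.5-fold, 1.44-fold and 1.37-fold higher, with adjusted p between 0.00264 and 0.0273. Rangap1 was 1.55-fold higher with overlapping samples and did not pass the test (0.63 ± 0.18, adjusted p = 0.065, exact permutation p = 0.0857). It passed without SOM/SOM replicate 3, the shallow library (adjusted p = 0.0195), and with DESeq2 (adjusted p = 0.00873). Without SOM/SOM replicate 1, 3 members were called higher, since Optn (adjusted p = 0.0506), Kif4 (0.0578) and Ppp4r1 (0.0667) no longer passed. Ppp4r1 also lost its call without ΔMT/ΔMT replicate 2 (0.0847), without ΔMT/ΔMT replicate 3 (0.0757) and without SOM/SOM replicate 2 (0.0618).

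On the CPM scale, the ΔMT/ΔMT samples of Hdac1 lay at 24.7% ± 5.34 (SD, n = 4) of the way from the WT/WT mean to the SOM/SOM mean, and those of Lcp1 at 25.2% ± 5.31. Pdzd11 stood at 42.4% ± 6.74, Kif4 at 50.7% ± 4.17, Ppp4r1 at 51.7% ± 11.9, Optn at 54.2% ± 11.3 and Rangap1 at 60.4% ± 10.8. No sample of Hdac1 or Lcp1 was above 31.2% on this scale, and no sample of the other 5 genes was below 32.4%. On the log2 scale the separation from Pdzd11 was lost, with Hdac1 at 45% ± 6.83, Lcp1 at 47.7% ± 6.65 and Pdzd11 at 51.6% ± 7, while Rangap1 stood at 80% ± 6.89. Dicer1 itself was at 47.8% of WT/WT in ΔMT/ΔMT and at 4.93% in SOM/SOM by the fitted fold change.

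**Figure D4:**
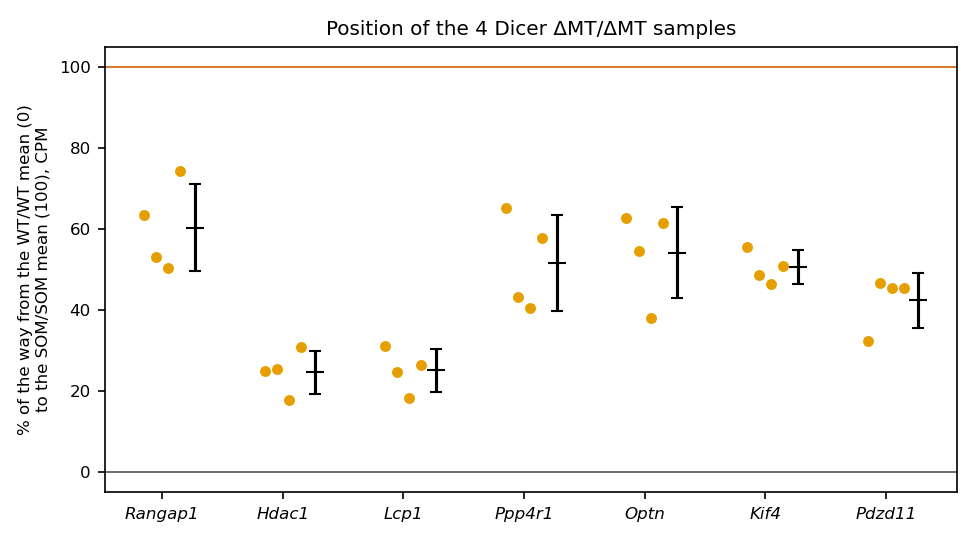
Position of the 4 Dicer ΔMT/ΔMT samples for each target gene, as the percentage of the way from the WT/WT mean (0) to the SOM/SOM mean (100) in CPM; points are samples, and black bars are the mean and SD. Hdac1 and Lcp1 lie between 17.7% and 31.2%, and the other 5 genes between 32.4% and 74.3%; on the log2 scale, not drawn, Hdac1, Lcp1 and Pdzd11 lie within 1 SD of each other.

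The paired-end samples address whether the targets respond in the same way with 1 intact Mili allele and with none. Against heterozygous controls, 7 of 7 members were called higher in RNAi mutants, where 7.07% of the 20989 genes tested were, and 7 of 7 in double mutants, where 12.3% were. In RNAi mutants, Rangap1 was 8.22-fold higher (log2 fold change 3.04 ± 0.19, edgeR adjusted p = 1.81e-07), Lcp1 7.34-fold (2.88 ± 0.19, adjusted p = 2.82e-07), Hdac1 5.61-fold (2.49 ± 0.20, adjusted p = 3.19e-06) and Optn 3.68-fold (1.88 ± 0.27, adjusted p = 0.000441). Ppp4r1 was 2.63-fold higher, Kif4 2.21-fold and Pdzd11 1.87-fold, with adjusted p of 0.00138 or less. In double mutants the order of the first members was Rangap1 at 8.02-fold, Hdac1 at 5.03-fold and Lcp1 at 4.77-fold. Both sets of mutants share the same 4 controls. Each double mutant was above each control for all 7 members (exact permutation p = 0.0286 each, the smallest possible), and with 2 samples against 4 no p under 0.0667 is possible. The share of all genes separated in this way is not given here, so the separation does not set the members apart.

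Between double and RNAi mutants no member was called higher, where 0.310% of all genes tested were, and none was called lower, by edgeR or by DESeq2. At an unadjusted edgeR p under 0.05 there was 1 member, Lcp1, beside 1004 of the 20989 genes tested. Lcp1 was lower in double mutants (log2 fold change -0.62 ± 0.19, 95% interval -1.03 to -0.21, edgeR adjusted p = 0.438). The intervals of the other 6 reached from -0.90 to 0.41 on the log2 scale at their widest, and differences within these bounds could not be told from 0. In the single piRNA mutant the members stood between 66.7% for Lcp1 and 97.9% for Pdzd11 of the control mean. Lcp1, Kif4 and Ppp4r1 were below the range of the controls there and the other 4 inside it. This single library carries no test.

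The response to Dicer SOM/SOM was compared between both runs as the difference between SOM/SOM against WT/WT and RNAi mutants against heterozygous controls, in 1 fit of the 20 samples of replicated groups. It differed for 0 of 7 members by edgeR, where 0.00806% of the 24824 genes tested differed, and for 0 by DESeq2. At an unadjusted edgeR p under 0.05 there were 0 members, beside 2218 of the 24824 genes. With so few genes differing in all, 0 of 7 does not set the members apart. The log2 difference of the responses was -0.08 for Rangap1 (95% interval -0.68 to 0.53), 0.11 for Hdac1 (-0.40 to 0.62), -0.04 for Lcp1 (-0.54 to 0.46) and 0.24 for Ppp4r1 (-0.25 to 0.73). For Optn it was -0.05 (-0.75 to 0.64), for Kif4 -0.05 (-0.43 to 0.33) and for Pdzd11 0.14 (-0.23 to 0.50). All 7 intervals held 0 and lay within -0.75 to 0.73. Dicer1, whose controls are WT/WT in one run and SOM/WT in the other, had log2 fold changes of -4.34 in SOM/SOM and -3.46 in RNAi mutants. Run, read type, control genotype and Mili allele cannot be told apart in this comparison.

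In SOM/SOM against WT/WT, the copies moved with some members and not with others. Gm10093 rose with Hdac1, by 6.07-fold in SOM/SOM (log2 fold change 2.60 ± 0.15, edgeR adjusted p = 9.06e-07). Over identical stretches its reads cannot be told from those of Hdac1, so this rise is not a separate observation. Gm7823 rose with Lcp1, by 6.70-fold (2.74 ± 0.18, adjusted p = 2.02e-06). Of the Rangap1 copies, Gm7162 rose 3.69-fold (adjusted p = 5.37e-05) and Gm16574 9.30-fold (adjusted p = 0.00216). Gm16574 stood between 0.0342 and 0.532 CPM in WT/WT, its lowest sample under 3 counts, and between 2.04 and 5.03 in SOM/SOM. Its fold therefore starts from a level near the floor. Gm15681, the copy of Ppp4r1, rose less than its parent, by 1.81-fold (0.86 ± 0.12, adjusted p = 0.000486). E330011O21Rik, the antisense holder of Hdac1 sequence, stood between 163 and 179 CPM in WT/WT and between 173 and 194 in SOM/SOM (log2 fold change 0.12 ± 0.09, adjusted p = 0.393). Kif4-ps stood between 2.13 and 3.57 CPM in WT/WT and between 3.12 and 3.54 in SOM/SOM (adjusted p = 0.544). Gm4864, a copy of Hdac1 at 0.358 to 0.68 CPM in WT/WT, rose 4.01-fold in SOM/SOM (adjusted p = 0.000349). It was not called in RNAi mutants (0.76 ± 0.88, edgeR adjusted p = 0.673) or double mutants (-0.21 ± 0.75, adjusted p = 0.885). Gm10093, Gm7823, Gm15681, Gm16574 and Gm7162 were called higher in both. In RNAi mutants Gm16574 and Gm7162 each lost the call without some single controls.

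**Figure D5:**
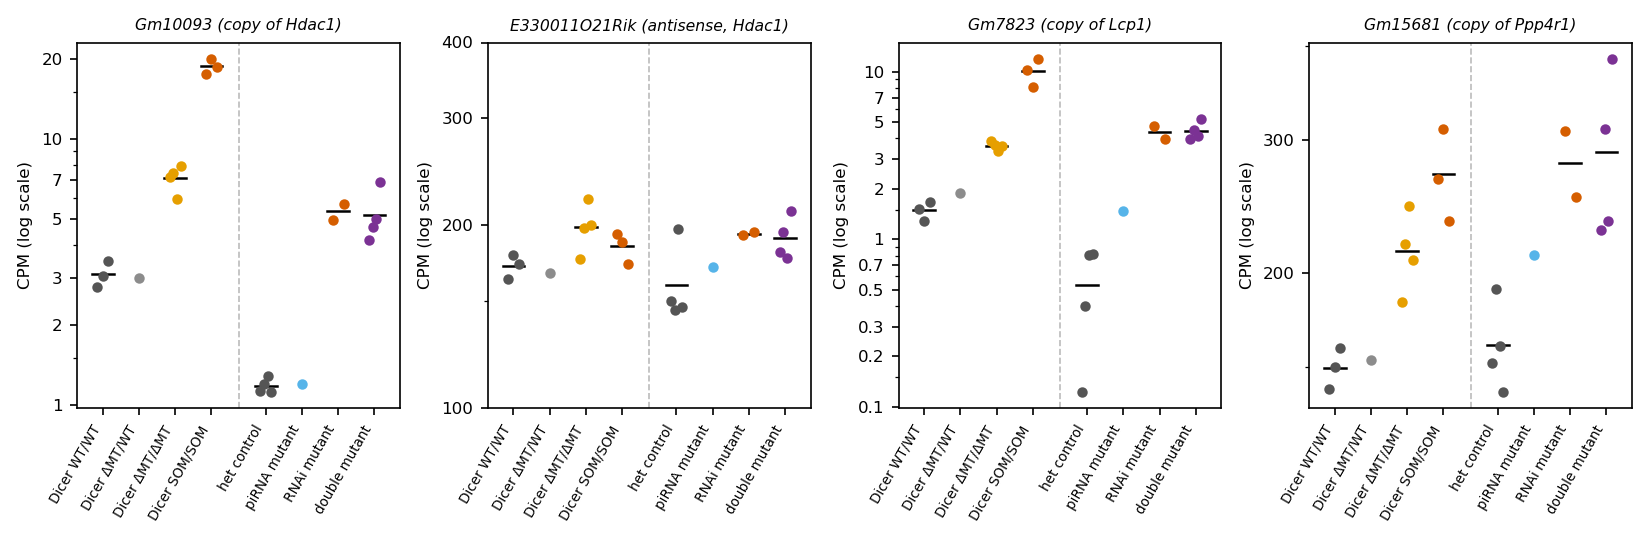
CPM on a log scale of 4 copies in each of the 22 samples, by genotype, drawn as in the plot of the target genes. Gm10093, Gm7823 and Gm15681 are higher in SOM/SOM than in WT/WT, and E330011O21Rik stays between 145 and 221 CPM in every sample.

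Reads that fit several places were split between them, so reads of a copy and of its parent cannot be told apart where both are identical. Gm7823, with an identical run of 79 bases, held 1.71% to 2.32% of its sum with Lcp1 in single-end samples and 0.176% to 3.05% in paired-end samples. How much of its rise came from reads of Lcp1 was not tested. Gm10093 held 35.3% to 37.8% of the summed Hdac1 and Gm10093 level in the 11 single-end samples but 7.14% to 12.3% in the 11 paired-end samples, whose reads are longer. Summing both moved the log2 fold change of Hdac1 in SOM/SOM from 2.64 to 2.62 and in RNAi mutants from 2.49 to 2.46. How much of the rise of Gm10093 came from reads of Hdac1 was not tested. Ppp4r1 was the reverse case, where the copy was the more abundant transcript. Gm15681 stood at 55.4 ± 3.41 RPKM in WT/WT (SD, n = 3), against 4.90 ± 0.968 for Ppp4r1, and held 87.6% to 91% of the summed CPM in WT/WT and 80% to 83.6% in SOM/SOM. Summed over all copies in the count table, the log2 fold change in SOM/SOM was 0.98 ± 0.11 for Ppp4r1 (edgeR adjusted p = 6.51e-05) and 0.41 ± 0.09 for Hdac1 (adjusted p = 0.00457), the latter mostly E330011O21Rik by level.

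The study's list of siRNA targets was chosen by the study from small RNA data of other oocyte samples and holds 191 genes besides the members, of which 190 were tested in each run. In ΔMT/ΔMT 61 of them were higher and 10 lower, which is 32.1% and 5.26%, beside 8.06% and 7.3% of all genes. In SOM/SOM 79 were higher and 15 lower, or 41.6% and 7.89%, beside 14.5% and 14.2%. SOM/SOM exceeded ΔMT/ΔMT for 32 genes of the list and was below it for 5, or 16.8% and 2.63%, beside 4.03% and 3.32%. In RNAi mutants 56 were higher and 3 lower, or 29.5% and 1.58%, beside 7.07% and 3.64%, and without RNAi mutant replicate 2 the count of higher genes was 36. In double mutants 63 were higher and 9 lower, or 33.2% and 4.74%, beside 12.3% and 8.83%. Medians of their log2 fold changes were 0.23 in SOM/SOM and 0.25 in RNAi mutants, and all 7 members in SOM/SOM exceeded the median of the list. The members were chosen with earlier results of these data known, so this does not set them apart.

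Genes that act in the pathway changed little apart from Dicer1. Among 12 genes for small RNA processing and action, Dicer1 was lower in ΔMT/ΔMT, SOM/SOM, RNAi mutants and double mutants. Dgcr8, a partner of Drosha in the microRNA pathway, was lower in ΔMT/ΔMT (log2 fold change -0.42 ± 0.11, edgeR adjusted p = 0.0225) and in SOM/SOM (-0.43 ± 0.12, adjusted p = 0.019). Ago1 was higher in SOM/SOM (0.61 ± 0.17, adjusted p = 0.0219). Ago2, the slicer, stood at 0.29 ± 0.22 in SOM/SOM (adjusted p = 0.375) and -0.32 ± 0.27 in RNAi mutants. In the paired-end run Dicer1 was the only gene of the list to pass the test.

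The study measured Rangap1, Hdac1, Optn and Lcp1 by quantitative PCR as well, relative to Hprt, with B2m as a gene that is not targeted. In these libraries Hprt stood at 39.9, 40.1 and 32.2 CPM in WT/WT and at 38.3, 38.1 and 43.6 in SOM/SOM (log2 fold change 0.09 ± 0.14, edgeR adjusted p = 0.648). It was less even elsewhere, at 41.8, 51.4, 53.5 and 40.2 CPM in ΔMT/ΔMT (0.32 ± 0.13, adjusted p = 0.119, unadjusted p = 0.029), at 35.3, 60.4, 75.1 and 36.3 in controls and at 34.8, 56.6, 47.5 and 88.3 in double mutants. B2m was lower in SOM/SOM (-0.54 ± 0.13, adjusted p = 0.0112), where it stood at 14.3, 16.9 and 21.0 CPM against 25.0, 25.7 and 23.9 in WT/WT. It was not called in RNAi mutants (-0.3 ± 0.21, adjusted p = 0.429) or in double mutants (-0.32 ± 0.17, adjusted p = 0.201). Relative to Hprt, Rangap1 was 7.34-fold higher in SOM/SOM and Hdac1 5.75-fold. In ΔMT/ΔMT, Kif4 stood at 1.28 times, Pdzd11 at 1.17 times and Ppp4r1 at 1.71 times the WT/WT level relative to Hprt, and the samples of these 3 genes then overlapped with WT/WT. In double mutants Optn, Kif4, Pdzd11 and Ppp4r1 relative to Hprt overlapped with controls, at 2.62, 1.91, 1.56 and 2.42 times their level. The amplified piece of Hdac1 is covered by 11 of its 14 copies, and Gm10093 holds both primers without a mismatch.

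The genes whose pattern over the 22 samples was most like that of a member, centred on the controls of each run, were found among the 20088 other genes tested in both runs. Pearson's r was 0.991 for C130026I21Rik and 0.989 for Gm10553 with Hdac1, 0.985 for Traip and 0.982 for AC133103.1 with Lcp1, and 0.984 for Rps23-ps1 and 0.983 for Gm5148 with Rangap1. With Optn they were Rps23 and Lrpap1, with Kif4 Gm48273 and Mrtfb, with Pdzd11 Gm5065 and Ccnh, and with Ppp4r1 Emc1 and Sp110, at r from 0.967 to 0.982. Rps23, Traip and Sp110 are on the study's target list, which makes 3 of these 14 genes. Of all genes tested in both runs, 196 were on that list, members included. The samples share genotype groups, and the values describe these libraries only.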

How the data were processed

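The authors mapped reads to GRCm38 with STAR 2.5.3a and deposited estimated counts per gene (expected counts) from featureCounts, made with GENCODE M15, without strand and with reads of several places or genes split into fractions. Replicates were not pooled, and depth limits precision least where a level is far above 3 counts, which is 0.464 CPM in the shallowest library and at most 0.131 in the paired-end run. Counts were rounded and each run was fitted on its own in edgeR 4.0.16 (R 4.3.3) with TMM, filterByExpr on the replicated groups (minimum count 10, minimum total 15), the quasi-likelihood test and Benjamini-Hochberg adjustment over all genes tested at 0.05. The piRNA mutant was kept in its fit, whereas ΔMT/WT entered none. SE is the log2 fold change divided by the root of F, and the prior count was 2 for log2 CPM and 0.125 for fitted changes. Copies were found with blastn 2.17.0 among GENCODE M21 transcripts. Symbols were matched for 52403 of 52636 genes. Members and lists were chosen with earlier results of these data known. The script was tested on simulated data. Genes named were the members, Dicer1, B2m, Hprt, the copies, list members that passed the test or were asked about, and the 2 most similar genes of each member. Alternatives were DESeq2 1.42.0, total counts, other filters, 1 sample left out, age, a replicate block and summed copies. The study calls its samples biological replicates, and ages differ within most paired-end groups, but the labels name no animals, so p-values measure the spread between these samples. Between 2 replicates of a group the squared differences were 12.1 to 98 times those of counting noise, so none was a repeat deposit. A table of repeat elements was not used here.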

Additional observations from a re-analysis of the deposited data

Results flagged for a closer look

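Among 24 sets of 4 samples, made up of the 7 members and Dicer1 in ΔMT/ΔMT, controls and double mutants, 2 held a sample that stood apart from the other 3, where chance gives about 1 in 20. Pdzd11 stood at 190 CPM in ΔMT/ΔMT replicate 1, against 210 to 212 in the other 3. Without that sample its log2 fold change against WT/WT was 0.58 ± 0.08 (edgeR adjusted p = 0.00188). Ppp4r1 stood at 80.8 CPM in double mutant replicate 2o, against 55.6 to 59.2 in the other 3. Without that sample its log2 fold change against controls was 1.28 ± 0.13 (edgeR adjusted p = 2.96e-05).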

How the results depend on the processing

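All 7 members stayed higher in ΔMT/ΔMT, SOM/SOM, RNAi mutants and double mutants under every alternative that kept the call rule, including DESeq2, age as a term, animals of 17 weeks or younger and any sample left out. SOM/SOM against ΔMT/ΔMT was less firm, with 3 to 7 members called when 1 sample was left out. There were 2 with an added threshold of a log2 fold change over 1, and 5 with all copies summed. In that sum, which is mostly E330011O21Rik by level, Hdac1 lost its call. Against their controls, the threshold of a log2 fold change over 1 left 5 of 7 members in ΔMT/ΔMT, 7 in SOM/SOM, 6 in RNAi mutants and 6 in double mutants. It left 22 target list genes higher in ΔMT/ΔMT (11.6%, beside 4.4% of all genes), 38 in SOM/SOM (20%, beside 9.3%) and 4 in SOM/SOM against ΔMT/ΔMT (2.11%, beside 1.98%). In RNAi mutants it left 27 (14.2%, beside 5.66%) and in double mutants 30 (15.8%, beside 9.1%). Summing each member with all its copies was chosen after seeing the data, as were the alternatives for the target list and the replicate block between runs, and gave medians of 0.67, 1.12, 1.14 and 1.07 in the same 4 mutant groups. With the level of Gm42418, a ribosomal RNA locus, as a term, the median in RNAi mutants was 1.57. With 1 sample left out it ranged from 1.59 to 2.12, and in double mutants from 1.46 to 1.76. RNAi mutants then rest on a lone sample in some fits, which is assumed to vary like the others. With 1 sample left out the target list gave 19 to 31 calls in SOM/SOM against ΔMT/ΔMT, beside 32 with all samples, 36 (without replicate 2) to 58 in RNAi mutants, and 0 to 1 in double against RNAi mutants, with 1 and no filter on low counts. The cause of these shifts was not tested.

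Same-numbered samples did not deviate together (r from -0.025 to 0.054 over 9 pairs in the single-end run and from -0.069 to 0.177 over 6 in the other), and nothing in the labels pairs them. With a replicate block, 7 members stayed called in each mutant group against its control and 5 in SOM/SOM against ΔMT/ΔMT, where Ppp4r1 had an adjusted p of 0.0523. Between runs, 0 members differed with the block. The target list then gave 21 calls in SOM/SOM against ΔMT/ΔMT and 37 in RNAi mutants.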
